A study of Mus musculus with 18 samples.

Results

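Bulk RNA sequencing of sorted neuronal nuclei from the medial entorhinal cortex (MEC) was compared between 6 aged mice of about 22 months and 6 young mice of about 2.5 to 3 months, gene family by gene family. These 12 libraries are part of a set of 18, which also holds 6 middle-aged (MA) mice of about 12 months. The members of both groups came from the age labels of the samples, with 1 library per mouse and 3 females and 3 males in each group. The mice were C57Bl/6, and had been trained in virtual reality and recorded with silicon probes before the tissue was taken. MEC was cut from frozen hemispheres, and nuclei positive for both Hoechst and NeuN, a protein of neuronal nuclei encoded by Rbfox3, were sorted. According to the methods of the study, the dissection may include nuclei of the lateral entorhinal cortex and parasubiculum.

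Young mice came from Charles River, and aged and MA mice from the Jackson Laboratory. Age and supplier therefore cannot be told apart in any difference from young mice, and MA values are given beside the called genes and a number of lists because MA mice share the supplier of the aged mice. Sex coincides with the recording cohort in young and aged mice. According to the methods of the study, MA mice of both sexes were in the cohort of the young and aged females. MA mice therefore differ in cohort from young and aged males, and they arrived from the supplier at a younger age than aged mice. Values are normalised gene counts, so a level is not a number of molecules, and the depth of each library is unknown. The libraries listed 19909 to 24101 genes above 0 each. Xist and Ddx3y matched the listed sex in all 18 libraries. The 12 libraries held pan-neuronal markers at summed values of 132859 to 211650 in young mice and 134424 to 195242 in aged mice, and their 8 members had a median log2 fold change of 0.00. In bulk nuclei, fewer cells of a type and less RNA per cell cannot be told apart.

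The MEC holds stellate and pyramidal neurons that code for position, and inhibitory interneurons that act on them through GABA. The GABA-A receptor is a chloride channel built from 5 subunits of several families, and its alpha subunit sets much of its pharmacology and location. Programs often followed in the aging brain are synaptic transmission, mitochondrial energy supply, protein synthesis and turnover, chromatin and splicing, and inflammation. For these and other programs, 64 gene lists were compared, which hold 1799 of the 17984 genes tested.

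Between aged and young mice, 11 genes were called in limma, that is, they had an adjusted p of at most 0.05 and differed by 0.5 or more on the log2 scale in either direction. This is 0.0612% of the genes tested, with 9 genes that rose (0.05%) and 2 that fell (0.0111%). Without adjustment, 964 genes (5.36%) had a p under 0.05, of which 487 (2.71%) were higher and 477 (2.65%) lower in aged mice. The median log2 fold change of all genes tested was 0.02. In 60 of the 64 lists no member was called. The lists with a called member were GABA-A receptor subunits and the lists of Ccl27, Il11ra and Ccl21 copies, of Dynlt1 and Tmem181 copies and of Tmem254 copies, which holds only Tmem254a. The lists were chosen with earlier results of these data known, so a call in a list of copies is no separate result. In the age by sex interaction no gene was called in limma, and 443 genes (2.46%) had an unadjusted p under 0.05.

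**Figure D1:**
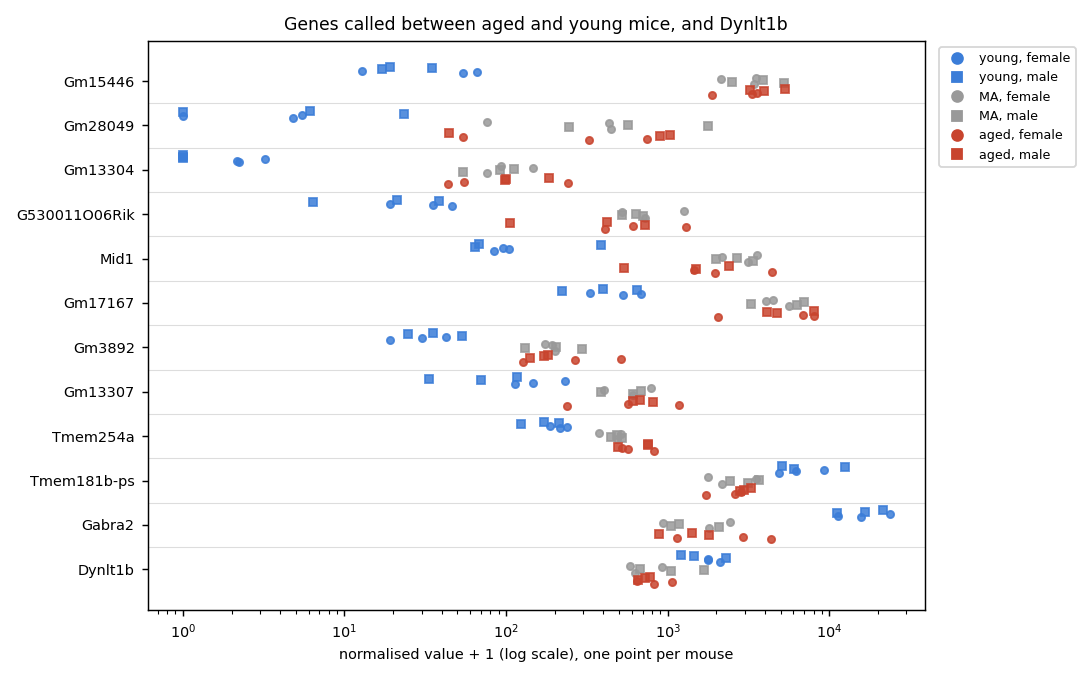
Normalised value plus 1 (log axis) of each mouse for the 11 genes called between aged and young mice and for Dynlt1b, with circles for females and squares for males. No young mouse overlaps an aged mouse in any of these genes, and MA mice overlap the young mice only in Dynlt1b.

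Many of the called genes belong to families of near-identical copies, in which reads can be divided among the copies. Of the 11 called genes, 7 had a position in the GENCODE annotation of GRCm39, and 5 of these share more than 50% of their 31-base words with other annotated genes. Only 3.37% of the 17087 genes with such a share passed that limit, and the median share was 0.875%. Their values are therefore uncertain as values of a single locus. Gm3892 (chr4:42054592-42134385), Gm17167 (chr4:42206998-42235313) and Gm13307 (chr4:41791782-41942213) are long non-coding RNAs of a region on chromosome 4 that holds repeated copies of the chemokine genes Ccl27 and Ccl21 and of the interleukin receptor gene Il11ra. Their shares of words found elsewhere were 99.5%, 62% and 80.3%, respectively. Gm17167 was at 221 to 683 in young mice, with a median of 463, and at 2060.3 to 8038 in aged mice, with a median of 5819. Its log2 fold change was 3.55 (standard error 0.33, adjusted p = 1.36e-05 in limma). Gm13307 rose from a median of 114 to 640.0, and Gm3892 from 31.7 to 175. Of the 9 tested genes in the list of Ccl27, Il11ra and Ccl21 copies, which does not hold Gm17167, 3 were called (Gm3892, Gm13307 and Gm13304), all of them higher, and the other 6 were not. In a fit of only the 12 young and aged libraries, Gm3892 and Gm13307 were no longer called (adjusted p = 0.0522 and 0.0835 in limma).

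Gm15446 encodes a zinc finger protein on chromosome 5 (chr5:110071266-110093477) and shares 48.1% of its 31-base words with its neighbour Zfp932. The longest run shared by the coding sequences of both genes is 195 bases. The first 60 bases of that run are shown because they are the same in both genes, from the coding strand of GENCODE transcripts on GRCm39, at chr5:110090578-110090637 for Gm15446 and at chr5:110157051-110157110 for Zfp932, both on the plus strand.
Gm15446: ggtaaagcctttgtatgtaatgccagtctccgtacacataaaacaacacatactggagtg
Zfp932: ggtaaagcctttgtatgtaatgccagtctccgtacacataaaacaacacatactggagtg
Gm15446 lay between 11.7 and 65.5 in young mice and between 1873 and 5312 in aged mice, with medians of 26 and 3443. Zfp932, chosen after its values were seen, lay between 1233 and 3054 in young mice and between 1679.6 and 3090.3 in aged mice. Thus the groups overlapped in Zfp932 (log2 fold change -0.03, standard error 0.22, adjusted p = 0.990 in limma) and did not overlap in Gm15446. None of the 15 tested genes within 500 kb of Gm15446 had an unadjusted p under 0.05.

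Tmem181b-ps, a transcribed pseudogene (chr17:6708801-6757783), was among the 2 genes that fell, from 4854 to 12455 in young mice (median 6118) to 1719 to 3270.4 in aged mice (median 2818). Its log2 fold change was -1.38 (standard error 0.23, adjusted p = 0.0158 in limma), and 98.1% of its 31-base words occur in other genes. The call was lost without Y23, A15, A19 or A20, at an adjusted p of 0.0501 to 0.0565 in limma, and in the fit of only young and aged libraries (adjusted p = 0.0759). Beside it lies Dynlt1b (chr17:6697471-6703695), a light chain of the motor protein dynein, of which the region holds the copies Dynlt1a, Dynlt1c and Dynlt1f. The first 60 coding bases of the copies are shown because they are nearly the same, in coding direction from GENCODE transcripts on GRCm39, with capitals for bases unlike Dynlt1b.
Dynlt1b: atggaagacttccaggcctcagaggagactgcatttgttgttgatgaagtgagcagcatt
Dynlt1a: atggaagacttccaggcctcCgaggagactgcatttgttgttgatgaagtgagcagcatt
Dynlt1c: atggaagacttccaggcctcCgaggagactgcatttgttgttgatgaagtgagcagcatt
Dynlt1f: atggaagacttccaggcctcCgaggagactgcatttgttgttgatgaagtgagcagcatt
These stretches include splice sites, and span chr17:6697611-6699311 in Dynlt1b (plus strand), chr17:6365201-6367675 in Dynlt1a (minus), chr17:6869209-6870918 in Dynlt1c (plus) and chr17:6920719-6923199 in Dynlt1f (minus). Dynlt1b lay between 1206 and 2288 in young mice and between 644 and 1068 in aged mice. Its groups did not overlap, but its log2 fold change of -1.17 (standard error 0.24) missed the limit (adjusted p = 0.122 in limma). The other Dynlt1 copies had log2 fold changes of -0.30 (Dynlt1a), -0.34 (Dynlt1c) and 0.30 (Dynlt1f), with overlapping groups. Tmem181a, the protein-coding relative of the pseudogene, had a log2 fold change of 0.32.

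The remaining called genes were Mid1, G530011O06Rik, Gm13304, Gm28049 and Tmem254a, of which only Mid1 had a position in the annotation (chrX:168468195-168773794). Mid1, an E3 ubiquitin ligase bound to microtubules, had a median of 88.8 in young mice and 1729 in aged mice. The long non-coding gene Gm15726, which lies within the bounds of Mid1 and was chosen after its values were seen, had a log2 fold change of 3.85 ± 0.93 (SE, limma adjusted p = 0.438). Gm13304, a further copy of the Ccl27 region by its list, was at 0 to 2.20 in young mice and 42.8 to 240.1 in aged mice. Tmem254a, a transmembrane protein gene, rose from a median of 199 to 661. Gm28049 was no longer called in the fit of only young and aged libraries (adjusted p = 0.0591 in limma). In each of the 11 called genes MA mice also did not overlap young mice, with log2 fold changes against young of -3.43 (Gabra2) to 6.86 (Gm15446). Between aged and MA mice, which share a supplier but, in males, not a recording cohort, the log2 fold changes of these genes lay between -0.69 (Mid1) and 0.45 (Tmem254a). Among all genes tested, 49 (0.272%) had groups that did not overlap between aged and young mice.

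Gabra2, the alpha 2 subunit, was the only 1 of 19 GABA-A receptor genes that was called. It lay between 11092 and 23607 in young mice, with a median of 16238, and between 886 and 4345 in aged mice, with a median of 1603. The groups did not overlap, and the level was lower in aged mice (log2 fold change -3.16, standard error 0.33, adjusted p = 7.17e-05 in limma). In MA mice Gabra2 was at 937 to 2444. Gabra2 lies on chromosome 5 (chr5:71114573-71253662) in a cluster with genes of other subunits. Within 500 kb the 3 tested genes had log2 fold changes of -0.07 to 0.26, and none had an unadjusted p under 0.05. Among these cluster genes, named after their values were seen, Gabra4 had a log2 fold change of 0.26 (standard error 0.21), Gabrb1 of -0.07 (standard error 0.22) and Gabrg1 of -0.05 (standard error 0.63), or -0.72 without the young mouse Y22.

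The other 18 GABA-A receptor genes did not pass the test, even at an unadjusted p of 0.05, and the median of the list was 0.05. Gabrg3, a gamma subunit, had a log2 fold change of -0.48 ± 0.35 (SE, limma adjusted p = 0.901). Gabrr2, a rho subunit, had a log2 fold change of -1.14 (standard error 0.92), and this was -0.17 without the young mouse Y20. Summed over the list, the subunit genes were at 82612 ± 13116 in young mice and 67852 ± 8175 in aged mice, with 60863 ± 10063 in MA mice (mean ± SD, n = 6 each). Among 21 partners at the inhibitory synapse, none had an unadjusted p under 0.05. Gephyrin (Gphn), the scaffold of these receptors, was at 9587 to 18494 in young mice and 8032 to 10653 in aged mice (log2 fold change -0.34, standard error 0.17, adjusted p = 0.898 in limma). The enzymes of GABA synthesis, Gad1 and Gad2, had log2 fold changes of -0.12 (standard error 0.29) and 0.10 (standard error 0.25).

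Receptors of glutamate, the excitatory transmitter, gave no called gene. AMPA and kainate receptor genes and their auxiliary subunits had a median log2 fold change of 0.20 over 18 genes, with 13 higher. Cacng3, an auxiliary subunit that brings AMPA receptors to the synapse, was their only member with an unadjusted p under 0.05. It was at 2236 to 3936 in young mice and 3866 to 4769 in aged mice, so the groups met at their edge (log2 fold change 0.49, standard error 0.18, adjusted p = 0.838 in limma). The pore-forming subunits Gria1 and Gria2 had log2 fold changes of 0.15 (standard error 0.33) and -0.14 (standard error 0.26). Among 6 tested NMDA receptor genes, which gate plasticity, the median was 0.01, and the obligate subunit Grin1 had a log2 fold change of -0.01 (standard error 0.24). Metabotropic glutamate receptors were lower in 6 of 7 genes with a median of -0.23, and none had an unadjusted p under 0.05. Their lowest member, Grm2, an inhibitory autoreceptor of glutamate release, had a log2 fold change of -0.59 (standard error 0.33).

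Receptors of modulators differed gene by gene. Of 19 muscarinic and nicotinic receptor genes and partners, 3 had an unadjusted p under 0.05 (15.8%, against 5.36% of all genes tested), in both directions. Chrna2, a nicotinic subunit of some interneurons, was at 0 to 32.8 in young mice and 24.3 to 106 in aged mice (log2 fold change 2.29, standard error 0.81, adjusted p = 0.838 in limma). Chrna3, another nicotinic subunit, was at 29.2 to 169.7 in young mice and 8.35 to 59.0 in aged mice (log2 fold change -1.18, standard error 0.48, adjusted p = 0.898 in limma). Lynx1, a membrane-anchored brake on nicotinic receptors, had a log2 fold change of -0.54 (standard error 0.23). These values overlapped between the groups in all 3 genes. Among 13 serotonin receptor genes, Htr3b, a subunit of the serotonin-gated channel, had a log2 fold change of 1.58 ± 0.69 (SE, limma adjusted p = 0.898). The median of the list was 0.19, with 0.51 in females and -0.03 in males.

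Voltage-gated sodium channel genes, which carry the action potential, were higher in 11 of 13 genes, with a median log2 fold change of 0.60 against 0.02 for all genes. None was called, and 2 (15.4%) had an unadjusted p under 0.05 and were higher, against 2.71% of all genes tested. The largest differences were in genes at low levels. Scn10a, best known from sensory neurons, was at 5.84 to 90.9 in young mice and 16.9 to 438 in aged mice, with medians of 15.5 and 231 (log2 fold change 2.76, standard error 0.72, adjusted p = 0.519 in limma). Its log2 fold change was 4.58 in females and 0.95 in males, and in MA against young mice it was 2.64. Scn4a, the channel of skeletal muscle, had medians of 10.4 and 38.6. In young mice the medians of Scn10a and Scn4a lay under 25, the mean value that a gene needed to be tested. All 13 genes found for the list passed this filter, and its part in the share of higher genes was not tested. The main neuronal channel genes Scn1a and Scn8a, chosen after their values were seen, had mean values of 10917 and 7127 in young mice and 7508 and 7401 in aged mice, with log2 fold changes of -0.43 (standard error 0.29) and 0.11 (standard error 0.19). The median of the list was 0.12 in females and 0.77 in males, and 0.38 without the young mouse Y27. It was 0.22 in MA against young mice and 0.24 in aged against MA mice.

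Of 76 potassium channel genes, 5 had an unadjusted p under 0.05 (6.58%), all of them higher in aged mice, and none was called. Of all genes tested, 2.71% had such a p and were higher. Kcnmb2, an auxiliary subunit of calcium-activated potassium channels, was at 909 to 2019 in young mice and 1395 to 2902 in aged mice (log2 fold change 0.67, standard error 0.26, adjusted p = 0.877 in limma). Kcnv1, a silent modifier subunit, had a log2 fold change of 0.65 (standard error 0.28), and Kcna1, an axonal delayed rectifier, of 0.47 (standard error 0.22). For Kcna1 the young mice lay close together at 335 to 386, and the aged mice spread from 343 to 758. Calcium channel genes had a median of 0.02 over 25 genes. Cacng3, also a member of this list, was the only 1 (4%) with an unadjusted p under 0.05, and it was higher, against 2.71% of all genes tested. Cacna1g, a low-threshold channel, had a log2 fold change of -0.61 ± 0.30 (SE, limma adjusted p = 0.898). All 4 HCN channel genes, which set the resonance of stellate neurons, had negative log2 fold changes, but these were small.

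Neuropeptides were higher in most members. Of 19 tested genes, 15 were higher in aged mice, the median log2 fold change was 0.63, and 4 (21.1%) had an unadjusted p under 0.05 and were higher, against 2.71% of all genes tested. No member was called. Vip, the peptide of interneurons that inhibit other interneurons, was at 1254 to 2508 in young mice (median 1639) and 1760.4 to 3938 in aged mice (median 2422). Its log2 fold change was 0.63 (standard error 0.21, adjusted p = 0.836 in limma). Sst, the peptide of dendrite-targeting interneurons, had medians of 1636 and 2872 and a log2 fold change of 0.86 ± 0.38 (SE, limma adjusted p = 0.898). Cort, a relative of Sst, was at 11.1 to 63.4 and 26.2 to 159, and Tac2, which encodes neurokinin B, at 104 to 232 and 153 to 371. Npy had a log2 fold change of 0.74 (standard error 0.36). The groups overlapped in each of these genes.

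The median of the neuropeptides was 0.66 in females and 0.40 in males. It was 0.09 in MA against young mice and 0.41 in aged against MA mice, which share a supplier but, in males, not a recording cohort. Interneuron markers, of which Sst, Vip and Cck are also neuropeptides, had a median of 0.29 over 13 genes, with 11 higher, and of 0.21 in MA against young and 0.27 in aged against MA mice. Lhx6, a transcription factor of the Sst and Pvalb classes, had a log2 fold change of 0.68 (standard error 0.35). The summed interneuron markers were at 27303 to 52375 in young mice and 34862 to 59396 in aged mice. Excitatory markers had a median of 0.11, and Slc17a7, the vesicular glutamate transporter of cortex, had a log2 fold change of 0.59 (standard error 0.51). Markers of entorhinal layer II, of deep layers and of dentate granule cells had medians of 0.07, -0.09 and -0.05, with no unadjusted p under 0.05.

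Immediate early genes, which neurons switch on upon activity, had a median of -0.06 over 23 genes, and the median differed in sign between the sexes, at 0.45 in females and -0.57 in males. Fosl2, a partner of Jun, was the only member with an unadjusted p under 0.05 between aged and young mice (log2 fold change -0.81, standard error 0.35, adjusted p = 0.898 in limma), at 0.03 in females and -1.64 in males. Bdnf, a neurotrophin driven by activity, had log2 fold changes of 0.17 in females and -0.49 in males. No interaction of age and sex passed the adjusted limit in limma for these or other genes. Nptx2, a pentraxin that gathers AMPA receptors on interneurons, was at 335 to 1156 in young mice and 220.2 to 689 in aged mice (log2 fold change -0.59, standard error 0.42).

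**Figure D2:**
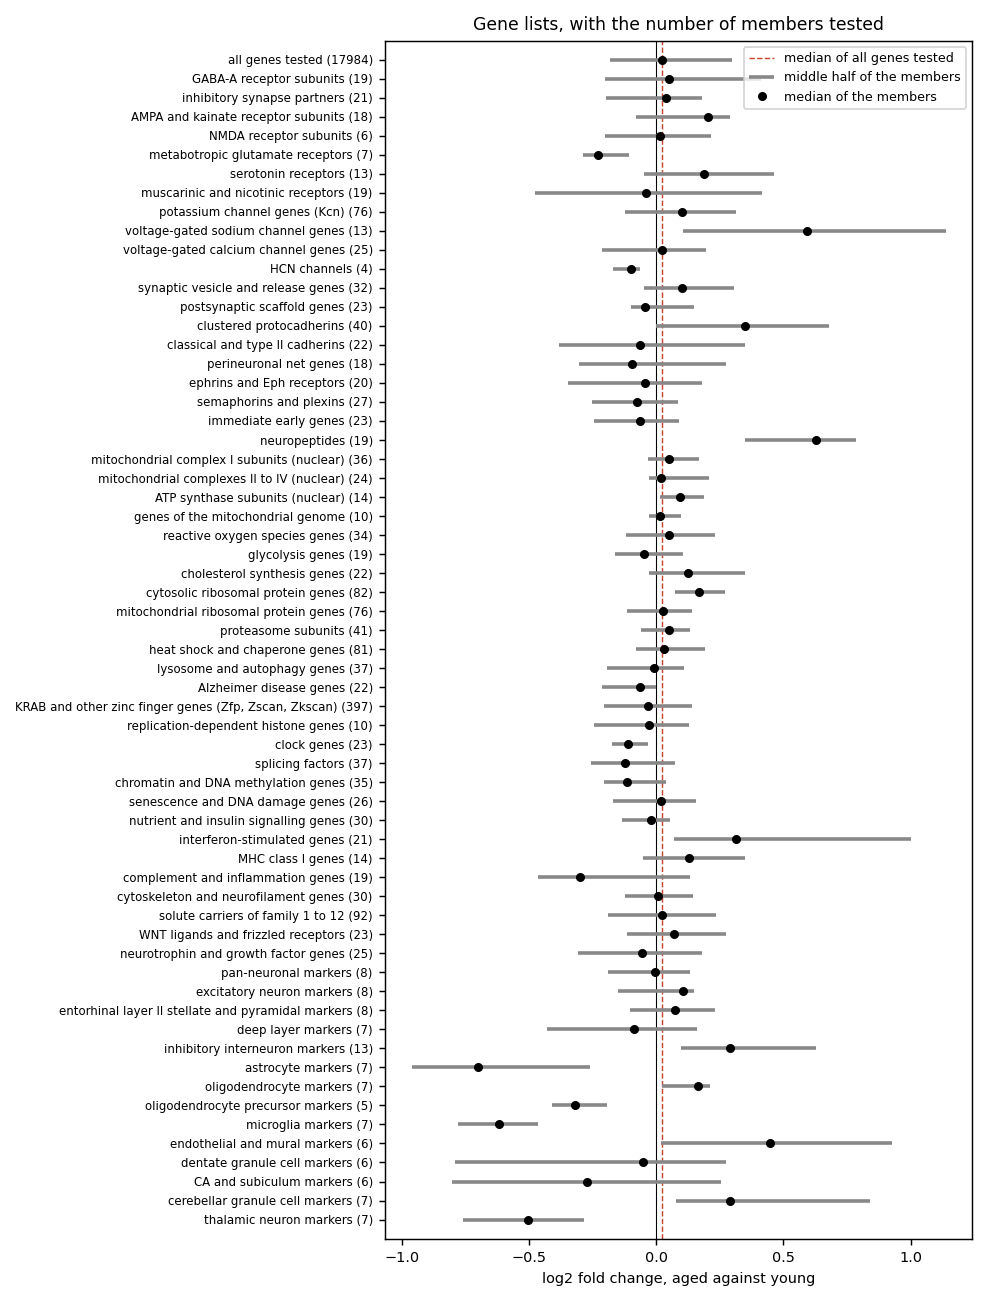
Median log2 fold change of aged against young mice (points) and the middle part of the members between the quartiles (bars) for the gene lists, the number of tested members in brackets, and the median of all genes tested (dashed line). Of the lists drawn, neuropeptides and sodium channel genes lie highest, at 0.63 and 0.60, and astrocyte and microglia markers lowest, at -0.70 and -0.62.

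Genes of the synapse itself lay near the background. Release genes had a median of 0.10 over 32 genes and postsynaptic scaffold genes of -0.04 over 23 genes, with no unadjusted p under 0.05 in either list. Snap25, which drives vesicle fusion, was at 24632 to 48452 in young mice and 31007 to 52159.5 in aged mice (log2 fold change 0.35, standard error 0.21). The list of perineuronal net genes holds components of the matrix around some interneurons as well as enzymes that cut matrix. Its median was -0.10 over 18 genes (0.01 in females and -0.33 in males, and of the other sign in 6 of the 23 settings of the processing that were tried). Of these genes, 2 (11.1%) had an unadjusted p under 0.05 and were lower, against 2.65% of all genes tested. Has3, an enzyme of hyaluronan synthesis, was at 72.3 to 87.2 in young mice and 6.23 to 73.3 in aged mice (log2 fold change -1.36, standard error 0.49, adjusted p = 0.838 in limma). Bcan, which encodes the proteoglycan brevican and is made by astrocytes as well as neurons, was at 835 to 2742 and 466 to 1002 (log2 fold change -0.86, standard error 0.32, adjusted p = 0.846 in limma). Acan, Hapln4 and Adamts3, which encode aggrecan, a link protein of the net and a matrix protease, had log2 fold changes of 0.41 (standard error 0.46), 0.14 (standard error 0.27) and 0.27 (standard error 0.35).

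Clustered protocadherins, which give neurons a surface identity by stochastic choice among tandem genes, were higher in 30 of 40 genes with a median of 0.35. Of these genes, 5 (12.5%) had an unadjusted p under 0.05, all higher in aged mice, against 2.71% of all genes tested. The mean log2 value of the list per mouse overlapped between the groups, at 5.84 to 7.40 in young mice and 6.43 to 7.67 in aged mice. Its SD within the groups was 0.52, above the median of 0.35. Over the 23 settings the median ranged from 0.17 to 0.49. Pcdhb12 was at 73.6 to 236 in young mice and 221 to 364 in aged mice (log2 fold change 0.99, standard error 0.29, adjusted p = 0.721 in limma), so the groups met only at their edge. Pcdhb9 was at 212 to 756 and 586 to 1178 (log2 fold change 0.95, standard error 0.29, adjusted p = 0.797 in limma), and Pcdhb21 had a log2 fold change of 0.54 (standard error 0.21). The median was 0.54 in females and 0.11 in males, 0.15 in MA against young mice and 0.15 in aged against MA mice. A gene listed in capitals as PCDHA4, not part of the list and chosen after its values were seen, was at 1030.0 to 2678 in young mice and 2868 to 7489 in aged mice. Its groups did not overlap, and its log2 fold change was 1.18 (standard error 0.32, adjusted p = 0.573 in limma). Alpha and gamma protocadherins share their last exons, and reads may be divided among them. Cadherins, ephrins and semaphorins had medians of -0.06, -0.05 and -0.08. In females and males the median differed in sign for cadherins (-0.11 and 0.01) and for ephrins (-0.32 and 0.10). The members of these 3 lists with the lowest unadjusted p were Cdh3, a cadherin, at a log2 fold change of 1.72 (standard error 0.79), Efna1, an ephrin, at -0.84 (standard error 0.35), and Sema3a, a repellent of axons, at 0.77 (standard error 0.32).

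Energy metabolism showed no called gene and medians close to 0. Nuclear genes of complex I had a median of 0.05 over 36 genes with no unadjusted p under 0.05, and complexes II to IV of 0.02 over 24 genes with 1, Cox7b. This subunit of cytochrome oxidase was at 653 to 1250.1 in young mice and 1087 to 1739 in aged mice (log2 fold change 0.50, standard error 0.18, adjusted p = 0.838 in limma). The 14 nuclear ATP synthase genes had a median of 0.09, and the 10 tested genes of the mitochondrial genome of 0.01. Among 34 genes of reactive oxygen species, the median was 0.05, and Gss, the second enzyme of glutathione synthesis, was the only member with an unadjusted p under 0.05. Gss was at 752 to 910.2 in young mice and 376 to 729 in aged mice, and these groups did not overlap (log2 fold change -0.53, standard error 0.17, adjusted p = 0.836 in limma). In MA mice it was at 626 to 1025. Cholesterol synthesis genes were higher in 16 of 22 genes, with medians of 0.13 in all mice, 0.45 in females and -0.03 in males. Insig1, a sterol sensor of this pathway, had a log2 fold change of 0.58 (standard error 0.28), Nsdhl, a sterol dehydrogenase, of 0.46 (standard error 0.24) and Hmgcs1, an early enzyme, of 0.39 (standard error 0.22).

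Cytosolic ribosomal protein genes were higher in 74 of 82 genes, but by a small amount. Their median was 0.17, with the quartiles at 0.07 and 0.27, and 2 genes (2.44%) had an unadjusted p under 0.05 and were higher, close to the 2.71% of all genes tested. Of all 17984 genes, 9497 were higher. Rpl7 was at 299.9 to 525 in young mice and 436 to 701 in aged mice (log2 fold change 0.46, standard error 0.19), and Rps24 at 52.7 to 139.9 and 112 to 258 (log2 fold change 0.69, standard error 0.30). The summed values of the list overlapped, at 32117 ± 2834 in young mice and 35838 ± 6135 in aged mice (mean ± SD, n = 6 each). The median was 0.19 in females, 0.10 in males, 0.13 in MA against young mice and 0.03 in aged against MA mice, and over the 23 settings it ranged from 0.05 to 0.21. In contrast, mitochondrial ribosomal protein genes were split, 40 higher and 36 lower, with a median of 0.03. There Mrpl38 and Mrps5 had log2 fold changes of -0.41 (standard error 0.17) and -0.44 (standard error 0.19), and Mrpl18 of 0.39 (standard error 0.18).

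Genes of protein quality control also lay near 0. The 41 proteasome genes had a median of 0.05 with no unadjusted p under 0.05, and the 81 chaperone genes a median of 0.03 with 3 (3.70%, against 5.36% of all genes in either direction). Of these, Dnajb13, a chaperone of cilia and sperm at low levels, had a log2 fold change of 2.30 (standard error 0.81), Dnajc24, which acts in diphthamide synthesis, of -0.50 (standard error 0.19) and Dnajc6, the auxilin that uncoats vesicles, of 0.34 (standard error 0.16). The 37 lysosome and autophagy genes had a median of -0.01, with 2 genes (5.41%) lower at an unadjusted p under 0.05, against 2.65% of all genes tested. Atg16l1, which conjugates LC3 to the autophagosome, was at 3907 to 5549.8 in young mice and 3329.6 to 4489 in aged mice (log2 fold change -0.38, standard error 0.13, adjusted p = 0.838 in limma). Among cytoskeleton genes, whose median was 0.01, Actb, which encodes beta-actin, was at 725 to 1259.5 and 1039 to 2072 (log2 fold change 0.68, standard error 0.18, adjusted p = 0.531 in limma), and Stmn1, a tubulin-binding protein, had a log2 fold change of 0.51 (standard error 0.23). Mtpn, which encodes the actin-capping regulator myotrophin, had a log2 fold change of 0.61 ± 0.15 (SE, limma adjusted p = 0.438).

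Among 397 zinc finger genes, taken by name from the KRAB and other families, 227 were lower and 170 higher with a median of -0.03 (0.01 in females and -0.09 in males). Of these, 19 (4.79%) had an unadjusted p under 0.05, close to the 5.36% of all genes. Zfp951 was at 21.7 to 272 in young mice and 201 to 468 in aged mice (log2 fold change 1.59, standard error 0.48, adjusted p = 0.797 in limma), and Zbtb5 at 457 to 1151 and 405 to 558 (log2 fold change -0.63, standard error 0.21). Zfp459 had a log2 fold change of 1.58 (standard error 0.52). Clock genes were lower in 18 of 23 genes with a median of -0.11, without an unadjusted p under 0.05. Per2, a repressor of the clock, had log2 fold changes of 0.15 in females and -0.87 in males.

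Splicing factors were lower in 24 of 37 genes and chromatin genes in 24 of 35, with medians of -0.12 and -0.11. In each list 2 genes (5.41% and 5.71%) had an unadjusted p under 0.05, all lower in aged mice, against 2.65% of all genes tested in that direction. Ptbp1, a repressor of neuronal exons, was at 565 to 798 in young mice and 395 to 754 in aged mice (log2 fold change -0.47, standard error 0.18), and Rbm39, a splicing cofactor, had a log2 fold change of -0.53 (standard error 0.23). Sirt1, a deacetylase studied in aging, was at 858 to 1579.6 and 451 to 1045, with medians of 923 and 613 (log2 fold change -0.68, standard error 0.24, adjusted p = 0.838 in limma). Ezh2, which methylates histone H3, had a log2 fold change of -0.76 ± 0.28 (SE, limma adjusted p = 0.855). Both were lower in females (-0.48 and -0.41) and in males (-0.89 and -1.11), with overlapping groups. Senescence and DNA damage genes had a median of 0.02 over 26 genes with no unadjusted p under 0.05. This median was 0.14 in females and -0.18 in males, and of the other sign in 9 of the 23 settings. Cdkn2a, the senescence inhibitor of the cell cycle, was at 3.62 to 27 in young mice and 3.30 to 146 in aged mice (log2 fold change 1.74, standard error 0.92), and Brca1, which repairs DNA breaks, had a log2 fold change of 1.21 (standard error 0.58).

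Lists of metabolism and signalling not described so far had no member with an unadjusted p under 0.05. Their medians were -0.05 over 19 glycolysis genes, -0.02 over 30 genes of nutrient and insulin signalling, -0.06 over 25 neurotrophin and growth factor genes and 0.07 over 23 WNT ligands and frizzled receptors. The last was -0.12 in females and 0.61 in males. Of the 67 replication-dependent histone genes only 10 were tested, with a median of -0.03.

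Among immune programs, interferon-stimulated genes were higher in 17 of 21 genes with a median of 0.31. The mean log2 value of the list per mouse overlapped between the groups, at 5.22 to 7.12 in young mice and 5.70 to 7.89 in aged mice. Its SD within the groups was 0.77. The median was 0.45 in both females and males, -0.25 in MA against young mice and 0.48 in aged against MA mice. Only Oasl2, an antiviral gene, had an unadjusted p under 0.05 (4.76% of the list, against 5.36% of all genes tested). Oasl2 was at 23.3 to 160.1 in young mice and 60.1 to 442 in aged mice (log2 fold change 1.21, standard error 0.51, adjusted p = 0.898 in limma). The value of 442 was from A18, and the next aged mouse was at 119. Among 14 tested genes of MHC class I, the median was 0.13, and H2-M5, a non-classical member, was at 48.4 to 144 in young mice and 22 to 43.8 in aged mice, without overlap (log2 fold change -1.23, standard error 0.42, adjusted p = 0.836 in limma). Complement and inflammation genes had a median of -0.30 over 19 genes, with Il18, a cytokine of the inflammasome, at a log2 fold change of -0.94 (standard error 0.45). The median of the list was -0.31 in females and 0.14 in males, and over the 23 settings it ranged from -0.40 to -0.01. Microglia express several genes of this list, and the median of their markers was -0.47 in females and -0.75 in males.

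Genes of Alzheimer disease were lower in 16 of 22 genes with a median of -0.06. Apoe, the lipid carrier of astrocytes and microglia, was at 3659 to 11287 in young mice (median 6792) and 1564 to 7775 in aged mice (median 2639.7), and the groups overlapped. Its log2 fold change was -1.15 (standard error 0.30, adjusted p = 0.519 in limma). App, the amyloid precursor, was at 11382 to 38391 and 11856 to 28999 (log2 fold change -0.07, standard error 0.29), and Clu, a chaperone of lipoproteins, had a log2 fold change of -0.37 (standard error 0.20). Among solute carriers, whose median was 0.02 over 92 genes, Slc7a10, a transporter of astrocytes for small amino acids, had a log2 fold change of -1.48 ± 0.38 (SE, limma adjusted p = 0.516). Slc12a4, a chloride transporter, was at -1.29 (standard error 0.47) and Slc6a19, an amino acid transporter best known from gut and kidney, at 2.25 (standard error 0.92). Slc6a11, a GABA transporter of astrocytes, was at -0.48 (standard error 0.24).

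Markers of astrocytes and microglia had negative log2 fold changes as well, although the nuclei were sorted for NeuN. Astrocyte markers were lower in 6 of 7 genes with a median of -0.70, and 3 (42.9%) had an unadjusted p under 0.05, against 2.65% of all genes in that direction. Their summed value was 9577 to 26077 in young mice and 5927 to 21287 in aged mice. None of the 7 was at 0 in any of the 12 libraries. Aqp4, the water channel of astrocytes, had medians of 260.0 and 66.5 (log2 fold change -2.76, standard error 0.79, adjusted p = 0.709 in limma). Gja1, a gap junction protein, had a log2 fold change of -1.11 (standard error 0.40) and Aldh1l1, a folate enzyme, of -0.70 (standard error 0.33). The median of the list was -0.51 in females, -0.89 in males, -0.08 in MA against young mice and -0.41 in aged against MA mice.

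Microglia markers were lower in 7 of 7 genes with a median of -0.62, 3 of them (42.9%) at an unadjusted p under 0.05, against 2.65% of all genes in that direction. Their summed value was 2463 to 5835 in young mice and 1696 to 2864 in aged mice, and none was at 0 in any library. Csf1r and Cx3cr1, receptors of microglia, had log2 fold changes of -1.16 (standard error 0.42, adjusted p = 0.838 in limma) and -0.80 (standard error 0.30). The part of these markers in the values of Apoe, Bcan, Slc7a10, Slc6a11 and Il18 was not tested. The median of the microglia list was -0.52 in MA against young mice and -0.15 in aged against MA mice. Oligodendrocyte markers had medians of 0.16 in all mice, -0.34 in females and 0.80 in males. Markers of their precursors had medians of -0.32 in all mice, 0.25 in females and -0.89 in males. Endothelial and mural markers had a median of 0.45 over 6 genes, which ranged from 0.05 to 0.90 over the 23 settings, with Rgs5, a pericyte gene, at a log2 fold change of 1.30 ± 0.51 (SE, limma adjusted p = 0.880).

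**Figure D3:**
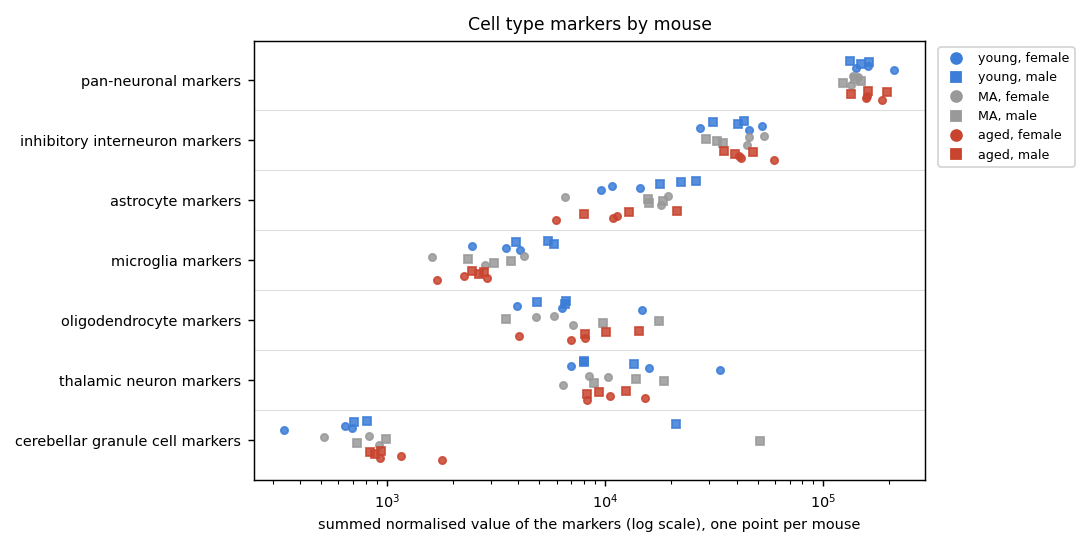
Summed normalised value (log axis) of the markers of each cell type in each mouse, with circles for females and squares for males. Microglia markers of aged mice lie at 1696 to 2864, at the lower end of the young mice or under it (A15, A18 and A24). Cerebellar granule cell markers of the young mouse Y25 lie far above those of the other young mice.

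Markers of neighbouring regions also differed between mice. Thalamic markers were lower in 7 of 7 tested genes with a median of -0.50, which was -0.10 in MA against young mice and -0.61 in aged against MA mice. There Plekhg1 had a log2 fold change of -1.21 ± 0.43 (SE, limma adjusted p = 0.838). Their summed value reached 33566 in the young mouse Y20 and was at most 15243 in aged mice. Cerebellar granule cell markers had medians of 2.01 in females and -0.45 in males. Their summed value was 21094 in the young mouse Y25 and at most 812 in the other young mice, against 834 to 1781 in aged mice. Gabra6, a GABA-A subunit of these cells, is a member of both lists. Markers of CA fields and subiculum were lower in 4 of 6 tested genes with a median of -0.27, which was 0.02 in females and -0.57 in males and ranged from -0.65 to 0.03 over the 23 settings. Their lowest member, Fn1, had a log2 fold change of -1.89 ± 0.71 (SE, limma adjusted p = 0.855). The part of these regions in the lists above was not tested, and without Y25 and the MA mouse MA5, another library with high granule cell markers, the count of called genes was also 11.

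**Figure D4:**
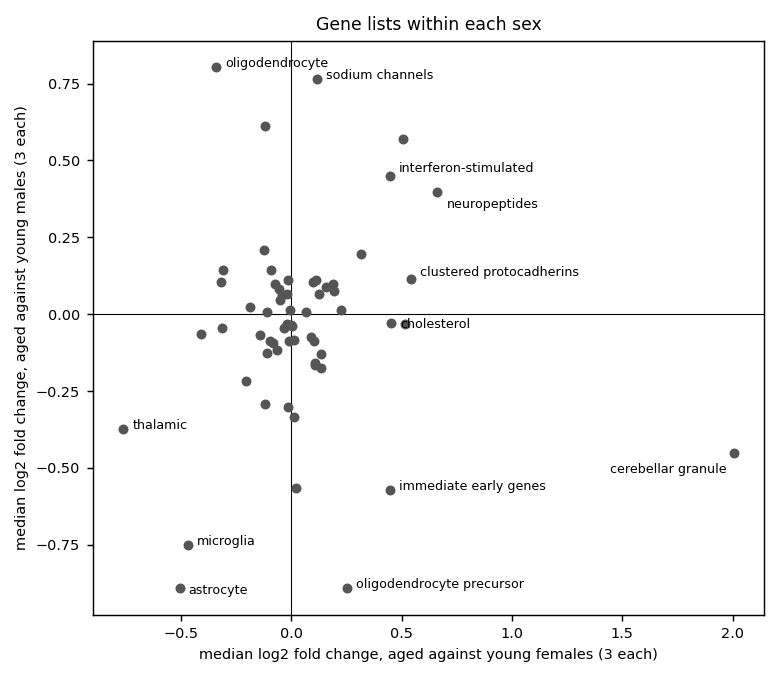
Median log2 fold change of each gene list in aged against young females (horizontal axis, 3 mice each) and in aged against young males (vertical axis, 3 mice each). Astrocyte and microglia markers lie below 0 and neuropeptides and interferon-stimulated genes above 0 in both sexes, while immediate early genes lie at 0.45 in females and -0.57 in males.

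Split by sex, 34 of the 64 lists had a median of the same sign in females and males, and 30 did not. Lists of the same sign in both sexes included neuropeptides, interferon-stimulated genes, endothelial markers and Tmem254a, and on the lower side astrocyte, microglia and thalamic markers and the Dynlt1 and Tmem181 copies. Gene length has been studied as a feature of aging transcriptomes. In 5 classes of gene length the median log2 fold change was 0.01, 0.01, 0.04, 0.03 and 0.01 from the shortest to the longest genes.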

How the data were processed

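The authors estimated transcript counts with kallisto, with introns included, on mm39 according to their methods (the submitters' processing notes name mm10), and divided gene counts by DESeq2 size factors over all 18 libraries. The deposited signal is this normalised count per gene. Whole reads could not be recovered from these values, because no step is common to a library. Depth is therefore unknown, and a count test with DESeq2 or edgeR was not run. Of 27782 entries, 1 without a name was left out (0.0246% to 0.169% of a library's sum), 1072 genes were 0 throughout and 27 carried a date as symbol.

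Genes with a mean of at least 25 (17984) entered limma (version 3.58.1, R 4.3.3, moderated with a mean-variance trend) as log2(value + 1). The model held age group and sex over all 18 libraries, and p-values were adjusted by Benjamini-Hochberg. Fold changes are on that scale and understate changes of low genes. Sex came from the source data. The p-values rest on separate mice. The script was tested on simulated data. Lists are described by counts and medians, with no test of a list. The gene lists were chosen with earlier results of these data known. Named genes were taken from all called genes, the 3 members of each list with the lowest unadjusted p, the first 2 members of symbol lists, and App, Apoe, Hapln4, Mtpn and Adamts3, and some lists are given by their median alone. Others, among them Xist, Ddx3y, Scn1a, Scn8a, Dynlt1c, Dynlt1f and Tmem181a, were chosen after their values were seen. Other members of the lists are not reported here.

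The symbols of 16352 tested genes were found in GENCODE on GRCm39, an older symbol of another 772 was found, and 860 had neither. Shared 31-base words were counted over annotated transcripts, with 1 in 16 words sampled for the share over all genes. Tables and figures were made in Python 3.11.15 (matplotlib 3.10.9, numpy 2.4.6, scipy 1.17.1, pandas 2.3.3). Alternatives were quantile normalisation, no filter or a filter at a mean of 100, pseudocounts of 0.5 and 5, a model without sex, only young and aged libraries, array weights, other call limits, each young or aged library left out, and values within each sex. Chosen after seeing the data were a robust moderation, a covariate for the count of genes above 0, and leaving out Y25 and MA5.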

Additional observations from a re-analysis of the deposited data

Results flagged for a closer look

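In groups of 6 mice, a value was taken as standing apart when its gap to the next mouse, divided by the range of the group, both as log2(value + 1), exceeded the critical value of the Dixon test for that group size. Of 242 groups tested, 26 held such a value (10.7%), and chance alone gives about 1 in 20. The mice with most of these values were A15 (5), Y20 (5) and A18 (4), and the cause was not tested. The aged mouse A15 stood apart in Tmem181b-ps at 1719, next 2613 (gap 0.651 of the range), Chrna3 at 8.35, next 34.1 (gap 0.712 of the range), Mrps5 at 931, next 632 (gap 0.643 of the range), Dnajc6 at 9452, next 6928 (gap 0.649 of the range) and Slc12a4 at 30.7, next 127 (gap 0.743 of the range). The aged mouse A18 stood apart in Zfp932 at 3090.3, next 1988 (gap 0.723 of the range), Gabrr2 at 18.2, next 88.7 (gap 0.736 of the range), Oasl2 at 442, next 119 (gap 0.658 of the range) and Rbfox3 at 2922, next 4825 (gap 0.736 of the range). The aged mouse A19 stood apart in Acan at 356, next 119 (gap 0.642 of the range). The aged mouse A20 stood apart in Efna1 at 457, next 188 (gap 0.742 of the range). The aged mouse A24 stood apart in Grin1 at 2906, next 7142 (gap 0.837 of the range) and Has3 at 6.23, next 30.9 (gap 0.637 of the range). In young mouse Y20 this held for Gphn at 18494, next 11636 (gap 0.705 of the range), Cnih3 at 819, next 2029 (gap 0.749 of the range), Mrpl38 at 1458, next 1098 (gap 0.716 of the range), Mrps5 at 675, next 851 (gap 0.69 of the range) and Dnajc6 at 3939, next 5514 (gap 0.807 of the range). In young mouse Y22 this held for Gabrg1 at 42.2, next 404 (gap 0.721 of the range) and Scn8a at 12091, next 6607 (gap 0.707 of the range). In young mouse Y23 this held for PCDHA4 at 1030.0, next 2122 (gap 0.756 of the range) and Aldh1l1 at 164, next 523 (gap 0.805 of the range). In young mouse Y25 this held for the summed cerebellar granule cell markers at 21094, next 812 (gap 0.789 of the range). In young mouse Y27 this held for Mid1 at 386, next 104 (gap 0.73 of the range), Sema3a at 1996, next 909.5 (gap 0.703 of the range) and Cox7b at 653, next 983 (gap 0.631 of the range).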

How the results depend on the processing

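The count of 11 called genes stayed within 8 (only young and aged libraries, of which 7 are among the 11) and 13 (array weights, or an adjusted p limit of 0.10), and all 11 were kept with quantile normalisation, no filter, either pseudocount, no sex term, robust empirical Bayes and the number of genes as covariate. With each young or aged library left out in turn the count was 10 to 12. With a mean of at least 100, 10 genes were called, since Gm13304 is not tested there. The age by sex interaction gave 0 calls in limma in all 4 alternatives, and 443 genes at an unadjusted p under 0.05 as reported. In the fit of only young and aged libraries, Gm13307, Gm28049, Gm3892 and Tmem181b-ps missed the limit (adjusted p = 0.0835, 0.0591, 0.0522 and 0.0759 in limma), and Dynlt1b passed it (0.0464). Tmem181b-ps also missed it without young mouse Y23 and without aged mouse A15, A19 or A20, with a log2 fold change of -1.50 to -1.23 over all alternatives. The adjusted p of Gabra2 ranged from 1.07e-05 to 0.00178. No called gene changed direction. Of the 64 lists, 30 kept the sign of their median in all 23 settings. The median of sodium channel genes ranged from 0.38 (without Y27) to 0.78 (without A18), of neuropeptides from 0.40 to 0.70, and of cerebellar markers from -0.49 to 1.26. Quantile normalisation moved the median of all genes from 0.02 to -0.02. No paired analysis was possible because young and aged mice were different animals, and their labels give no pairs. The planned count tests were not run because whole reads could not be recovered. Depth is unknown, so no limit from counting can be given for low genes.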
